A study of Mus musculus with 2 samples.

Results

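The endoplasmic reticulum (ER) folds and modifies proteins destined for membranes, granules and secretion. A fixed list of 33 mouse genes of this machinery and of its stress response was followed, out of 32285 genes in the count tables. The genes were listed by name and function, with earlier results of these data known. They fall into 6 roles. There are 11 folding chaperones and their partners, 5 disulfide enzymes, 6 stress sensors and transcription factors, 2 genes that feed back on the stress response, 7 genes of ER-associated degradation (ERAD) and 2 genes of translocation into the ER.

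The cells came from livers of CD1 mouse embryos at stage E14.5. Lineage-depleted cells were sorted as LSK (lineage-negative, SCA1-positive, cKIT-positive) and sequenced with droplet 3′ chemistry, as 1 library of IκBα wild-type cells (WT, a pool of 2 embryos) and 1 library of IκBα knockout cells (KO, a pool of 3 embryos). IκBα, encoded by Nfkbia, holds NF-κB in the cytoplasm, and its knockout is present in every cell of the embryo. By title the samples are LT-HSCs, and by cell type they are LSK cells. No test was possible from a single library of each genotype. Intervals are 95% intervals and cover counting error alone.

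When unfolded proteins build up in the ER, the sensors encoded by Ern1 (IRE1), Eif2ak3 (PERK) and Atf6 start the unfolded protein response. It raises chaperones and ERAD genes through XBP1 and ATF6, and slows translation through PERK while ATF4 and CHOP (Ddit3) are made. Cells that secrete much protein, such as hepatocytes and granule-forming myeloid cells, are known for high levels of ER chaperones. Blood stem cells are known for low rates of protein synthesis.

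After filtering, 3458 WT and 4417 KO cells were kept, with a median of 28065 and 19560 UMIs (counted RNA molecules) per cell. In all, 109122324 UMIs were deposited for WT and 100029143 for KO. Levels are UMIs scaled to a total of 1000000 (CPM) within a library or class. Nfkbia, the targeted gene, stood at 13.6 CPM for the WT library against 0.071 for the KO library. Of 15 clusters, 12 were named from marker genes, giving 8 classes of 102 to 2989 cells. The stem-like class held 1043 WT and 1048 KO cells, the neutrophil-like class 327 and 362, and the hepatocyte-like class 33 and 69. As an alternative, cells were gated one by one by their own marker scores. The same class was given to 932 of 2091 stem-like, 225 of 689 neutrophil-like and 101 of 102 hepatocyte-like cells. The stem-like and neutrophil-like classes were thus broader than the cells so gated. The markers also named the clusters, so their levels describe the classes and do not test the names. The 11 stem cell markers summed to 1028 (WT) and 1054 CPM (KO) in stem-like cells. They summed to 484 and 479 CPM in lymphoid-like and 509 and 422 CPM in endothelial-like cells. The 12 neutrophil markers summed to 8596 and 11182 CPM in neutrophil-like cells and to 672 and 647 CPM in stem-like cells. The 10 hepatocyte markers summed to 71401 and 77656 CPM in hepatocyte-like cells and to 76.5 and 125 CPM in stem-like cells. The LSK label did not hold for all classes. Ly6a (SCA1) had 421 and 329 UMIs in WT and KO stem-like cells, but 2 and 3 UMIs in erythroid-like cells and 2 and 3 UMIs in hepatocyte-like cells. These are raw counts from classes of unlike size. Stem-like cells had 21640922 and 15269886 UMIs in all, and hepatocyte-like cells 1811079 and 2306792. Kit was at 84.7 and 79.5 CPM in stem-like cells and at 5.52 and 9.54 CPM in hepatocyte-like cells. The neutrophil-like class also carried monocyte and mast cell markers. The libraries shared 7 barcodes, 6 of them after filtering. Cells with Y-linked UMIs and no Xist were 0.116% of the WT library and 17.4% of the KO library.

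A sequence element of the stress response recurred in some of the promoters. Its letters were not used to list the genes. The list was drawn from genes of this same response, however, so the shares below are not independent of the listing. The ER stress element (ERSE) is the site through which ATF6 and XBP1 are known to act, and its letters are CCAAT, any 9 bases and CCACG. Exact matches on either strand were looked for from 250 bases before to 50 after the RefSeq transcription start, where 28 of the 33 genes had an entry. ERSE letters were found for 9 of these 28 genes (32.1%) and for 37 of all 27025 genes with an entry (0.137%). The shorter ERSE-II, with the letters ATTGG, any 1 base and CCACG, was found for 2 of the 28 genes (7.14%) and for 12 of 27025 (0.0444%). Both elements end in the same letters, and none of these genes carried both. The UPRE, with the letters TGACG directly followed by TGG, was found for 0 of 28 genes and for 0.714% of all genes. The core of the ATF4 element, TGATG, any 1 base and AAT, was found for 0 of 28 and for 1.08% of all genes. No match says only that these letters are not in this window. Either element was found for 11 of the 28 genes, and 17 had neither. The 12 matches are shown because they are the sites found. They are written on the strand that carries them, in GRCm38 (RefSeq, GRCm38.p6), with the fixed letters in capitals.
Hspa5, chr2:34772025-34772043, plus strand: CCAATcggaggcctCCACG
Hsp90b1, chr10:86705638-86705656, minus strand: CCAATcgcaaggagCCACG
Hsp90b1, chr10:86705533-86705551, plus strand: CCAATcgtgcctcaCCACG
Calr, chr8:84847075-84847093, plus strand: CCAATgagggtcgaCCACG
Canx, chr11:50325800-50325818, minus strand: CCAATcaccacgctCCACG
Dnajc3, chr14:118937827-118937845, plus strand: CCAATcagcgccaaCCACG
Creld2, chr15:88819520-88819538, minus strand: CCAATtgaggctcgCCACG
Pdia6, chr12:17266491-17266509, plus strand: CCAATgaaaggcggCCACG
Syvn1, chr19:6046532-6046550, plus strand: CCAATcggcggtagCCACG
Derl3, chr10:75893242-75893260, minus strand: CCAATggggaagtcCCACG
Herpud1, ERSE-II, chr8:94386377-94386387, plus strand: ATTGGgCCACG
Dnajb11, ERSE-II, chr16:22857852-22857862, plus strand: ATTGGcCCACG

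The outer letters are the same by construction of the search, while the 9 bases between them differed from gene to gene. Distances are counted from the RefSeq start. The Hspa5 site lay 65 to 47 bases before the start and the Syvn1 site 44 to 26 bases before it. The gene spans given below are from GENCODE, where Hspa5 begins further upstream, so that its site lies inside the span. The Hsp90b1 promoter carried a pair of sites, 212 to 194 and 107 to 89 bases before the start. Dnajb11 had its ERSE-II letters 7 to 17 bases after the start. The 11 genes with either element were 7 chaperones or partners, Pdia6 among the disulfide enzymes, and the ERAD genes Herpud1, Syvn1 and Derl3.

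Across the cell classes, the 33 genes together were most abundant in hepatocyte-like, megakaryocyte-like and neutrophil-like cells, and least abundant in stem-like and erythroid-like cells. Their summed level was 7396 CPM in WT and 7373 CPM in KO hepatocyte-like cells. It was 6443 and 6283 CPM in megakaryocyte-like cells and 6142 and 6844 CPM in neutrophil-like cells. Stem-like cells had 3244 CPM in WT and 3279 CPM in KO, and erythroid-like cells 3086 and 2954 CPM. Endothelial-like cells (4943 and 5387 CPM) and macrophage-like cells (4722 and 5780 CPM) lay between these, and lymphoid-like cells (3516 and 3472 CPM) lay close to stem-like cells. In both libraries every one of the 5 other classes was above lymphoid-like, stem-like and erythroid-like cells. The order of the 8 classes depends on how finely cells are grouped, since the neutrophil-like cells of a finer clustering summed to 7759 (WT) and 8493 CPM (KO), above the hepatocyte-like class.

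**Figure D1:**
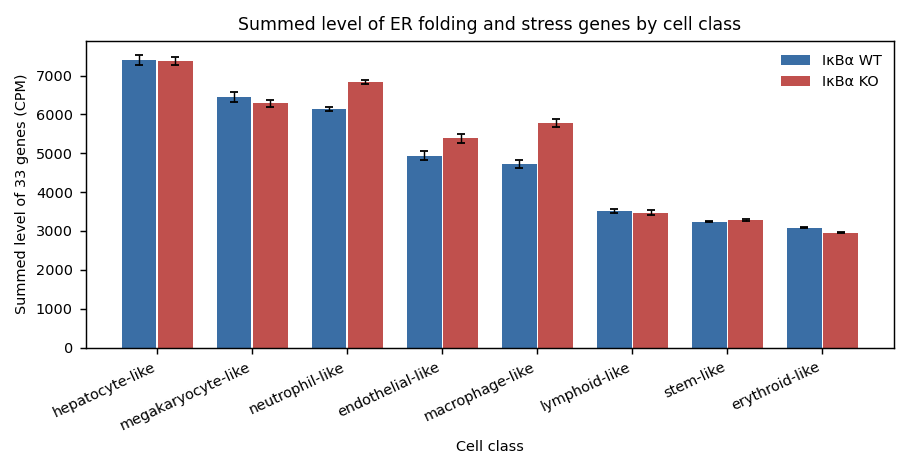
Summed level of the 33 ER genes in CPM (y axis, UMIs scaled to 1000000 UMIs of the class) by cell class (x axis), with WT in blue and KO in red. Error bars are 95% Poisson intervals. Hepatocyte-like cells stood at 7396 and 7373 CPM and stem-like cells at 3244 and 3279 CPM.

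Each library gave the class differences on its own. In neutrophil-like against stem-like cells, 31 of the 33 genes had at least 50 UMIs in each library, and Trib3 and Derl3 did not. The median log2 ratio of the 31 genes was 0.71 in WT and 0.87 in KO, where all genes had medians of -0.020 and -0.052. At least 2-fold higher in both libraries were 9 of 31 genes and lower 0, while 4.27% of all genes were higher and 5.62% lower. In hepatocyte-like against stem-like cells the medians were 1.06 and 0.94, with -0.31 and -0.32 for all genes. Here 13 of 31 genes were at least 2-fold higher in both libraries (12% of all genes) and 0 lower (16.1%). In lymphoid-like cells 0 of 31 genes were 2-fold higher (1.92% of all genes) or lower (3.56%). Megakaryocyte-like cells had 13 of 31 genes higher (5.81%) and 0 lower (9.89%), 8 of the 13 being folding chaperones or their partners. Macrophage-like cells had 8 of 31 higher (7.62%) and 0 lower (2.87%), and endothelial-like cells 6 of 31 higher (11.5%) and 0 lower (6.87%).

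RNA set free from broken cells was gauged from Alb. Alb, the serum albumin gene of hepatocytes, reached 13.96 CPM in WT and 29.8 CPM in KO stem-like cells, which was 0.0989% and 0.182% of its level in hepatocyte-like cells. At that share, hepatocyte RNA would give 0.780 and 1.42 CPM of Hspa5 to stem-like cells, which had 176 and 190.1 CPM.

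**Figure D2:**
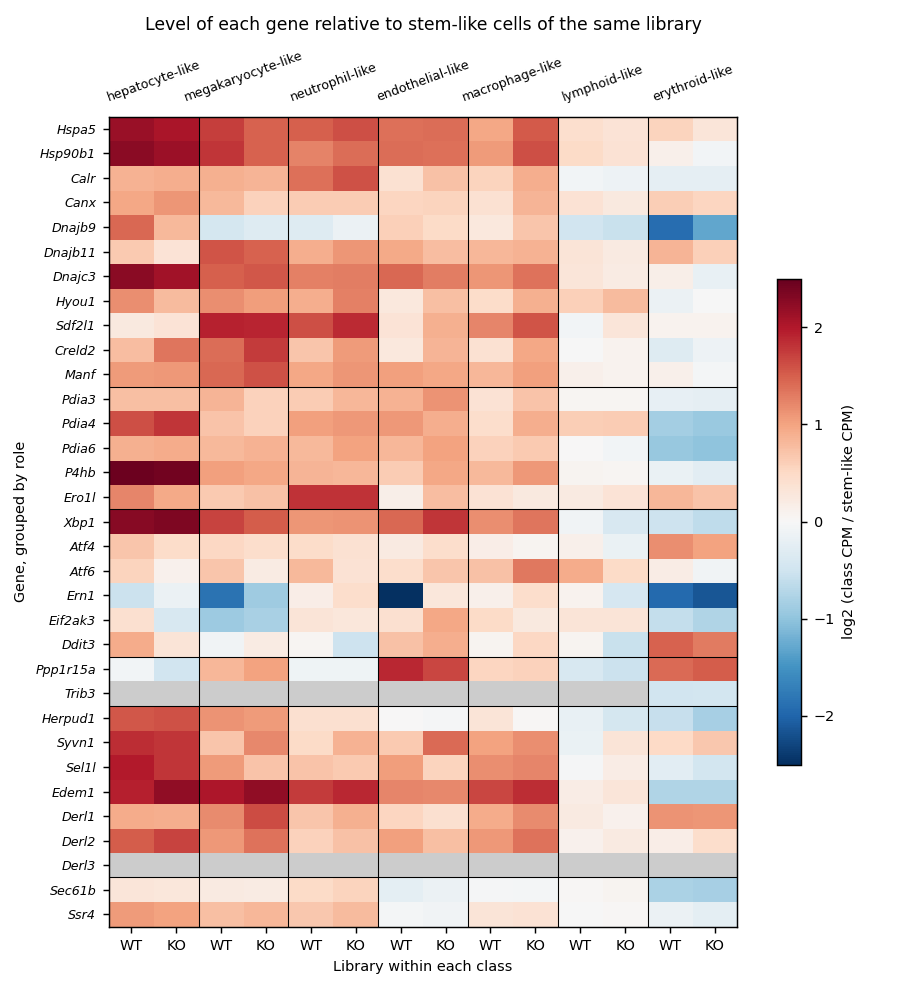
Log2 ratio of each gene's CPM in a class over stem-like cells of the same library (colour, red higher and blue lower), with genes in rows grouped by role and the WT and KO libraries side by side in columns, and values past the ends of the scale take the end colour. Grey marks fewer than 50 UMIs. Hspa5, Hsp90b1, Dnajc3, P4hb and Xbp1 were highest in hepatocyte-like cells, and Sdf2l1 was higher in megakaryocyte-like and neutrophil-like than in hepatocyte-like cells.

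Folding chaperones carried much of the difference. Hspa5 (ENSMUSG00000026864, chr2:34771970-34777547) encodes BiP, the ER chaperone of the HSP70 family that also holds the stress sensors inactive. Its level in WT cells was 176 CPM in stem-like, 236 in lymphoid-like, 259 in erythroid-like, 345 in macrophage-like, 455 in endothelial-like, 495 in neutrophil-like, 582 in megakaryocyte-like and 789 in hepatocyte-like cells. In KO cells it was 190.1 CPM in stem-like, 233 in erythroid-like, 242 in lymphoid-like, 501 in endothelial-like, 529 in megakaryocyte-like, 548 in macrophage-like, 581 in neutrophil-like and 779.9 in hepatocyte-like cells. Hspa5 was thus lowest in stem-like and highest in hepatocyte-like cells in both libraries, while the order in between differed. This place held among the 8 classes, and in KO the finer neutrophil-like group had 797 CPM, above hepatocyte-like cells (689 CPM in WT, below them). Its log2 ratio over stem-like cells was 1.49 (1.43 to 1.55) in WT and 1.61 (1.55 to 1.68) in KO neutrophil-like cells. In hepatocyte-like cells the log2 ratio was 2.17 (2.08 to 2.25) and 2.04 (1.95 to 2.12).

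Hsp90b1, which encodes the ER-resident HSP90 protein GRP94, was also highest in hepatocyte-like cells, and it was lowest in stem-like cells in WT and in erythroid-like cells in KO. It had 247 and 259.5 CPM in WT and KO stem-like cells, 583 and 681 CPM in neutrophil-like cells and 1181 and 1135 CPM in hepatocyte-like cells. Dnajc3, a cochaperone of BiP, had 37.8 and 41.0 CPM in stem-like, 90.0 and 99.3 CPM in neutrophil-like and 179 and 176 CPM in hepatocyte-like cells. Across the 8 classes these were the genes most like Hspa5, with Pearson's r of log2(CPM + 1) of 0.97 (WT) and 0.98 (KO) for Hsp90b1 and 0.97 and 0.97 for Dnajc3. Next came Xbp1 (0.92 and 0.93) and Manf (0.91 and 0.90). Ddit3 (0.11 and -0.0060) and Ppp1r15a (0.096 and -0.033) had values near 0. These correlations describe 8 classes that share libraries, and classes with more UMIs weigh no more than the others.

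Calr (ENSMUSG00000003814, chr8:84841850-84846934) encodes calreticulin, a calcium-binding lectin chaperone for glycoproteins. It was highest in neutrophil-like cells in both libraries, with 1236 (WT) and 1464 CPM (KO), above hepatocyte-like cells at 861 and 908 CPM and stem-like cells at 474 and 486 CPM. Its membrane-bound relative Canx, calnexin, was highest in hepatocyte-like cells instead. Canx had 149 and 148 CPM in stem-like, 229.8 and 231 CPM in neutrophil-like and 289 and 316 CPM in hepatocyte-like cells. Sdf2l1, which works with BiP and its J-domain partners, had 44.3 and 39.8 CPM in stem-like, 135 and 145 CPM in neutrophil-like and 52.5 and 50.7 CPM in hepatocyte-like cells. Its level in neutrophil-like cells was over 2-fold that in hepatocyte-like cells in both libraries, at a log2 hepatocyte-like to neutrophil-like ratio of -1.37 (WT) and -1.52 (KO).

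The other chaperones and partners lay between these patterns, with 1 exception. Dnajb11, Hyou1, Creld2 and Manf had log2 ratios over stem-like cells of 0.69 to 0.97 in WT and 1.07 to 1.26 in KO neutrophil-like cells. Dnajb9, a BiP cochaperone induced through XBP1, was the exception. It had 13.5 and 12.6 CPM in stem-like, 10.8 and 11.4 CPM in neutrophil-like, 36.4 and 22.1 CPM in hepatocyte-like and 3.61 and 5.15 CPM in erythroid-like cells. It was thus higher in stem-like than in erythroid-like cells, by over 2-fold in both libraries.

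Disulfide enzymes were higher in both secretory classes, but their leading gene differed. P4hb, the gene of protein disulfide isomerase, had the largest log2 ratio of hepatocyte-like over stem-like cells among the measured genes in both libraries. It stood at 79.2 and 82.4 CPM in stem-like, 142 and 148 CPM in neutrophil-like and 434 and 437 CPM in hepatocyte-like cells. Ero1l, the oxidase that recharges protein disulfide isomerase, was highest in neutrophil-like cells in both libraries. It had 16.5 and 17.9 CPM in stem-like, 57.8 and 62.6 CPM in neutrophil-like and 38.7 and 34.2 CPM in hepatocyte-like cells. Its log2 ratio over stem-like cells was 1.80 in WT and 1.81 in KO neutrophil-like cells, nearly the same value from each library. The isomerases Pdia3, Pdia4 and Pdia6 had log2 ratios over stem-like cells of 0.63 to 1.02 in WT and 0.83 to 1.08 in KO neutrophil-like cells, and Pdia4 reached 1.61 and 1.79 in hepatocyte-like cells.

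Among sensors and transcription factors, Xbp1 stood apart from the sensors. Xbp1 (ENSMUSG00000020484, chr11:5520659-5525893) encodes the factor that IRE1 switches on by splicing its RNA, and 3′ counting does not separate the spliced form. It had 22.2 and 23.0 CPM in stem-like, 47.8 and 50.3 CPM in neutrophil-like and 108 and 115 CPM in hepatocyte-like cells. The log2 ratio over stem-like cells was 1.10 (0.93 to 1.28) and 1.13 (0.93 to 1.33) in neutrophil-like and 2.28 (2.04 to 2.53) and 2.33 (2.09 to 2.56) in hepatocyte-like cells. The sensor genes Ern1 and Eif2ak3 gave few UMIs. In hepatocyte-like cells Ern1 had 6 and 10 UMIs and Eif2ak3 had 9 and 7 UMIs, too few to place them against stem-like cells at 4.81 and 4.78 CPM for Ern1 and 3.74 and 3.99 CPM for Eif2ak3. Atf6 had log2 ratios over stem-like cells of 0.81 and 0.36 in neutrophil-like cells.

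Atf4, Ddit3 and Ppp1r15a followed another order. Eif2ak3, the gene of PERK, did not share it. With 548 UMIs over the 8 classes, it was lower in erythroid-like than in stem-like cells in both libraries. PERK activity was not measured. Atf4 (ENSMUSG00000042406, chr15:80255184-80257541), the translation-controlled transcription factor, was highest in erythroid-like cells, at 141 and 148 CPM, against 62.8 and 74.1 CPM in stem-like and 86.2 and 96.9 CPM in neutrophil-like cells. Ddit3 (ENSMUSG00000025408, chr10:127290774-127296288), the gene of CHOP, was also highest there. It had 17.8 and 17.9 CPM in erythroid-like, 6.38 and 7.27 CPM in stem-like, 6.59 and 5.11 CPM in neutrophil-like and 12.1 and 9.10 CPM in hepatocyte-like cells. Ppp1r15a, which encodes GADD34 and restarts translation after stress, had 57.9 and 60.5 CPM in erythroid-like, 21.9 and 21.2 CPM in stem-like, 20.3 and 19.6 CPM in neutrophil-like and 21.0 and 15.2 CPM in hepatocyte-like cells. It was higher still in endothelial-like cells, at 80.7 and 67.5 CPM. In erythroid-like against stem-like cells, 3 of 32 genes were at least 2-fold higher in both libraries (7.52% of all genes), namely Ddit3, Ppp1r15a and the ERAD channel gene Derl1, and 2 were lower (25.4%), namely Dnajb9 and Ern1. Trib3, a pseudokinase gene induced by CHOP, had 173 UMIs over the 8 classes, too few for these ratios in most of them.

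ERAD genes, which draw misfolded proteins out of the ER for destruction, were highest by median in hepatocyte-like cells, followed by megakaryocyte-like and macrophage-like cells. Of 6 measured ERAD genes, 5 were at least 2-fold higher in hepatocyte-like than in stem-like cells in both libraries (12% of all genes). The median log2 ratio of the 6 was 1.69 in WT and 1.74 in KO. Megakaryocyte-like cells had 4 of the 6 higher (5.81% of all genes), with medians of 1.09 and 1.28. Macrophage-like cells had 4 of the 6 (7.62%), with 1.05 and 1.20. Endothelial-like cells had 1 of the 6 higher (11.5%), with 0.84 and 0.66. In neutrophil-like cells this was so for 1 of the 6 (4.27%), Edem1, and the medians were 0.63 and 0.80. Medians over all genes lay between -0.32 and 0.018 in these comparisons. Edem1, a lectin that sorts misfolded glycoproteins, had 8.23 and 8.51 CPM in stem-like, 27.5 and 31.3 CPM in neutrophil-like and 31.5 and 39.4 CPM in hepatocyte-like cells. Herpud1 and Sel1l, which hold the ERAD ligase complex together, were over 2-fold higher in hepatocyte-like than in neutrophil-like cells in both libraries. Herpud1 had 86.7 and 103 CPM in hepatocyte-like and 38.8 and 45.1 CPM in neutrophil-like cells. Sel1l had 55.2 and 54.6 CPM against 23.0 and 24.8 CPM. Syvn1, the gene of the ligase HRD1, had 17.7 and 16.0 CPM against 6.85 and 8.48 CPM. Derl1 and Derl2 had log2 ratios over stem-like cells of 0.92 and 1.52 in WT and 0.91 and 1.69 in KO hepatocyte-like cells. Derl3 had 51 UMIs over all 8 classes, 22 of them in WT and 6 in KO stem-like cells.

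The translocation genes differed from each other. Sec61b, a subunit of the protein-conducting channel, had 679 and 669.7 CPM in stem-like, 945 and 981 CPM in neutrophil-like and 833 and 811 CPM in hepatocyte-like cells, and was within 2-fold of stem-like cells in both. Ssr4, a subunit of the translocon-associated complex, had 346 and 358 CPM in stem-like, 553 and 621 CPM in neutrophil-like and 723 and 720.5 CPM in hepatocyte-like cells, where it passed 2-fold in both libraries.

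**Figure D3:**
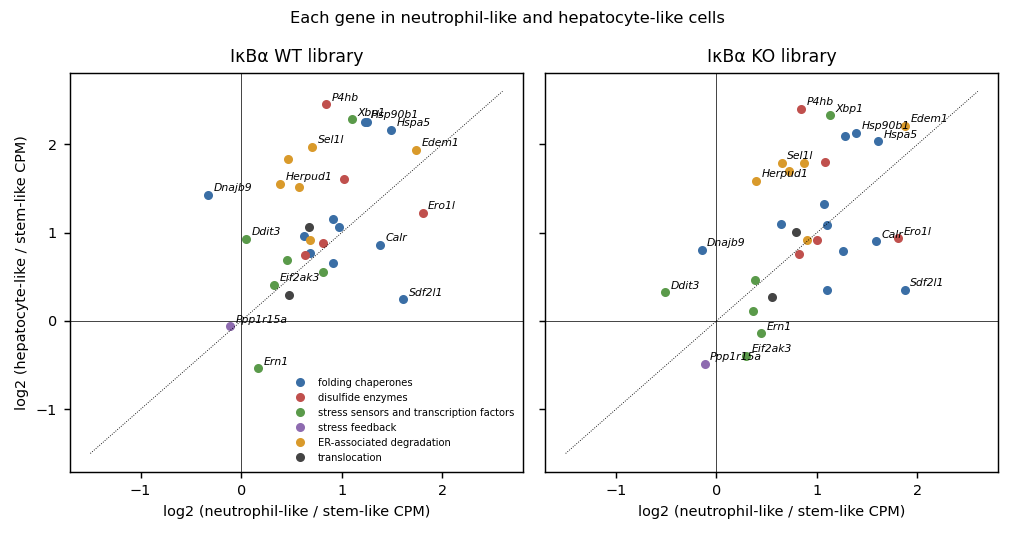
Log2 ratio of each gene in neutrophil-like over stem-like cells (x axis) against hepatocyte-like over stem-like cells (y axis) in the WT library (left) and the KO library (right), coloured by role. The dotted line marks equal ratios. Sdf2l1, Calr and Ero1l lay below the line and P4hb, Xbp1 and the ERAD genes Sel1l and Herpud1 above it in both libraries.

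Set directly against each other, hepatocyte-like and neutrophil-like cells differed in 5 of 31 genes by at least 2-fold in both libraries. P4hb, Xbp1, Herpud1 and Sel1l were higher in hepatocyte-like cells (4 of 31, with 11.6% of all genes) and Sdf2l1 was lower (1 of 31, with 13.9%). Against the finer neutrophil-like group alone, Xbp1 (64.0 and 59.3 CPM there) was under 2-fold higher in hepatocyte-like cells in both libraries, and Sel1l (26.8 and 30.0 CPM) was under 2-fold higher in KO. P4hb (162 and 168 CPM) and Herpud1 (41.5 and 49.0 CPM) remained over 2-fold higher in both. The median log2 ratio of the 31 genes was 0.24 in WT and 0.21 in KO, where all genes had -0.28 and -0.27. Genes with ERSE or ERSE-II letters in the promoter had median log2 ratios over stem-like cells of 0.86 and 1.09 in neutrophil-like and 1.255 and 1.46 in hepatocyte-like cells, over 10 measured genes. The 16 measured genes with neither had 0.60 and 0.69 in neutrophil-like and 1.00 and 0.78 in hepatocyte-like cells. Both groups held genes with at least 2-fold higher levels, 4 and 4 in neutrophil-like (4.27% of all genes) and 5 and 7 in hepatocyte-like cells (12%).

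The neutrophil-like class was not uniform. A finer clustering split it into neutrophil-like (136 WT and 174 KO cells), monocyte-like (92 and 83) and mast cell-like groups (74 and 94). The summed level of the 33 genes was 7759 and 8493 CPM in the finer neutrophil-like group, 4915 and 5230 CPM in the monocyte-like group and 5210 and 5277 CPM in the mast cell-like group. Hspa5 was at 689 and 797 CPM, 393 and 436 CPM, and 314 and 312 CPM in these groups. Calr was at 1723 and 1868 CPM in the neutrophil-like group, at 646 and 754 CPM in the monocyte-like group and at 1215 and 1346 CPM in the mast cell-like group. The finer neutrophil-like group was above the other 2 groups for the summed level, Hspa5 and Calr in both libraries. It was also above the hepatocyte-like class for the summed level and Calr in both libraries, and for Hspa5 in KO.

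Stem-like cells were made up of a cycling cluster (655 WT and 688 KO cells) and a cluster with lower Mki67 (388 and 360 cells), which were compared after the clusters had been seen. Cycling was not their sole difference. The cycling cluster had 3 of the 11 stem cell markers among its 50 leading genes and a median of 19778 UMIs per cell. The other cluster had 7 of the 11 and a median of 11226 UMIs. The part of cycling, stem cell markers or depth in the values below was not tested. None of 31 measured genes differed by 2-fold between them in both libraries, where 2.17% of all genes were higher and 1.74% lower in the cycling cluster. The median log2 ratio of the cycling over the other cluster was -0.035 in WT and -0.069 in KO. Single genes nevertheless differed in the same direction in both libraries. Calr was higher in the cycling cluster, at 503 against 385 CPM in WT and 509 against 409 CPM in KO. Xbp1 was lower there, at 19.7 against 29.9 CPM in WT and 20.3 against 32.4 CPM in KO. Dnajb9 was lower too, at 11.4 against 20.1 CPM and 11.3 against 17.2 CPM. Hspa5 was at 170.3 against 193 CPM in WT and 184 against 212 CPM in KO.

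Between the genotypes, stem-like cells differed little in these genes. The summed level was 3244 CPM in WT and 3279 CPM in KO, a log2 KO/WT ratio of 0.016 (-0.00088 to 0.032). The roles went in both directions within this sum. Sensors and transcription factors had 0.19 (0.098 to 0.27), chaperones and partners 0.042 (0.017 to 0.067) and disulfide enzymes -0.070 (-0.11 to -0.030). ERAD genes had 0.050 (-0.036 to 0.14), stress feedback genes 0.0037 (-0.20 to 0.20) and translocation genes 0.0032 (-0.026 to 0.033). A gene was counted as past the fold limit at a log2 KO/WT ratio of at least 0.32 in either direction. Of 32 genes with at least 50 UMIs, 1 was past the limit upwards in KO (6.14% of all genes) and 0 downwards (5.16%). The median log2 ratio was 0.048, beside 0.026 over all genes. The 1 gene was Trib3, with 26 and 29 UMIs and a log2 ratio of 0.66 whose interval (-0.15 to 1.48) held 0.

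Small differences outside the counting interval went in both directions in stem-like cells. Intervals lay above 0 for 4 of 32 genes and below 0 for 4, and over all 10955 measured genes above 0 for 1359 and below 0 for 672. Such counts depend on the UMIs of a gene as well as on its ratio. Hspa5 had a log2 KO/WT ratio of 0.11 (0.042 to 0.18). Hsp90b1 had 0.070 (0.011 to 0.13), Herpud1 0.21 (0.042 to 0.38) and Atf4 0.24 (0.12 to 0.35). The Hspa5 ratio was -0.033 when cells were gated one by one instead of by cluster. Below 0 were Pdia3 at -0.13 (-0.20 to -0.065), Pdia6 at -0.078, Sdf2l1 at -0.16 and Creld2 at -0.21 (-0.40 to -0.019). Calr had 0.038 (-0.0050 to 0.082), Xbp1 0.049 (-0.15 to 0.25) and Ddit3 0.19 (-0.18 to 0.56). Atf4, with 62.8 (WT) and 74.1 CPM (KO) in the whole class, differed in the cycling cluster, where it had 65.4 and 79.8 CPM (log2 ratio 0.29, 0.16 to 0.41). In the other stem-like cluster it had 55.0 and 54.6 CPM (-0.0088, -0.28 to 0.26). The difference between the clusters was not tested. Derl3, with 22 and 6 UMIs, was under the minimum of 50 UMIs.

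Other gene lists are read against the same shares of all genes in stem-like cells, 6.14% past the limit upwards and 5.16% downwards. Of 102 measured genes among 106 other ER genes (translocon, glycosylation, oxidation, degradation and export), 1 was past the limit upwards and 1 downwards in KO, with a median log2 ratio of 0.022. Of 17 measured ATF4 target genes 2 were higher and 0 lower, with a median of 0.060. The ATF4 target past the limit with an interval above 0 was Slc7a5, an amino acid transporter gene, with 3.47 (WT) and 5.30 CPM (KO) (log2 ratio 0.61, 0.14 to 1.09). Immediate early genes, which respond to handling and dissociation as well as to signalling, had 4 of 14 genes higher and 0 lower. These were Fos at 40.5 and 58.3 CPM, Fosb at 16.7 and 25.9 CPM, Dusp1 at 18.9 and 26.5 CPM and Klf2 at 21.0 and 30.3 CPM. Heat shock genes of the cytosol and mitochondria had a median of 0.13, with 1 of 12 genes higher and 0 lower. The part of handling in the stem-like values was not tested.

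**Figure D4:**
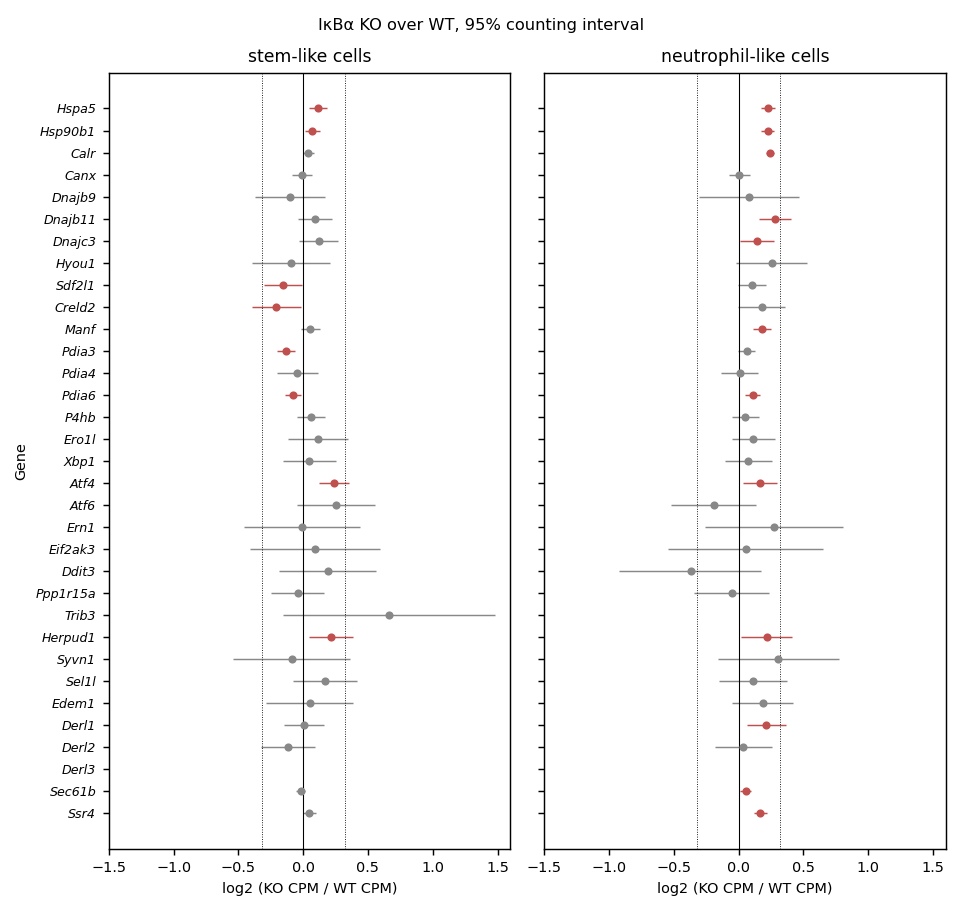
Log2 KO/WT ratio of CPM (x axis) of each gene (y axis) in stem-like cells (left) and neutrophil-like cells (right). Points are ratios of summed UMIs, bars are 95% counting intervals, red marks intervals that leave out 0, and dotted lines mark the fold limit. In stem-like cells 4 intervals lay above 0 and 4 below, and in neutrophil-like cells 12 lay above 0 and 0 below.

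In neutrophil-like cells the genes lay mostly above 0. The summed level was 6142 CPM in WT and 6844 CPM in KO, a log2 ratio of 0.16 (0.14 to 0.17). The KO value was higher for 28 of 31 measured genes, including all 11 chaperones and partners, all 5 disulfide enzymes and all 6 measured ERAD genes, and for 5177 of all 9962 measured genes. The median log2 ratio was 0.12, beside 0.0072 over all genes. Past the fold limit, 0 of 31 genes were higher (6.6% of all genes) and 1 was lower (7.1%). Intervals lay above 0 for 12 of 31 genes and below 0 for 0, and over all 9962 measured genes above 0 for 866 and below 0 for 664. These counts depend on the UMIs of a gene as well as on its ratio, since abundant genes have narrower intervals. Calr had 1236 CPM in WT and 1464 CPM in KO, a log2 ratio of 0.24 (0.21 to 0.28). Hspa5 had 495 and 581 CPM, a ratio of 0.23 (0.18 to 0.28). Dnajb11, a J-domain partner of BiP, had 95.1 and 116 CPM (0.28, 0.16 to 0.40). Hsp90b1 had 583 and 681 CPM (0.22), Manf 313 and 355 CPM (0.18), Derl1 64.0 and 74.2 CPM (0.21) and Atf4 86.2 and 96.9 CPM (0.17). Xbp1, at 47.8 and 50.3 CPM, had 0.075 (-0.11 to 0.26). Canx had 0.0066 (-0.076 to 0.089) and Pdia4 0.0089 (-0.14 to 0.15). The gene lower past the limit was Ddit3, with 77 and 47 UMIs and a log2 ratio of -0.37 (-0.92 to 0.17).

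Markers moved with this result. The summed level of the 12 neutrophil markers in this class was 8596 CPM in WT and 11182 CPM in KO, that of the 7 monocyte markers 397 and 351 CPM and that of the 6 mast cell markers 213 and 140 CPM. Mpo, the gene of the granule protein myeloperoxidase, had 2269.9 and 2826 CPM, and Elane, neutrophil elastase, 737 and 1023 CPM. In the finer neutrophil-like group the median log2 ratio of 30 measured genes was 0.15, Hspa5 had 0.21 (0.14 to 0.28) and Calr 0.12 (0.073 to 0.16). With a stricter filter on genes per cell the Hspa5 ratio was 0.094 and the Calr ratio 0.082, and the Xbp1 ratio was -0.24 (-0.51 to 0.035). The part of these markers in the result was not tested. Other ER genes in neutrophil-like cells had a median of 0.060 over 101 genes, with 0 higher and 2 lower past the limit.

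Hepatocyte-like cells, which had the highest summed level of the 8 classes, showed no detectable shift of the sum at this depth. The log2 KO/WT ratio of the summed level was -0.0045 (-0.037 to 0.028). Of 28 measured genes 2 were higher past the limit (14.9% of all genes) and 3 lower (11%). Dnajb9, at 36.4 and 22.1 CPM from 66 and 51 UMIs, was the gene with an interval outside 0, at -0.72 (-1.28 to -0.17). The median was -0.016, beside 0.030 over all genes. Hspa5 had -0.017 (-0.12 to 0.084) and Xbp1 0.091 (-0.18 to 0.37). The 10 hepatocyte markers summed to 71401 (WT) and 77656 CPM (KO), the 9 megakaryocyte markers to 1851 and 668 CPM, the 10 erythroid markers to 1005 and 762 CPM and the 12 neutrophil markers to 40.3 and 204 CPM. The part of these markers in the hepatocyte-like values was not tested.

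In erythroid-like cells, 7 of 11 chaperones and partners had intervals below 0, where the log2 ratio of their summed level was -0.081 (-0.097 to -0.065). Of 32 measured genes 2 were higher past the limit (4.46% of all genes) and 0 lower (4.77%). Intervals lay below 0 for 11 genes and above 0 for 4, and over all 10283 measured genes they lay below 0 for 1524 and above 0 for 692. Because intervals narrow with more UMIs, abundant genes leave out 0 at small ratios. These counts are thus not like for like with those over all genes. Hspa5 had 259 and 233 CPM (log2 ratio -0.15), Dnajc3 41.7 and 36.1 CPM (-0.21) and Pdia3 183 and 165 CPM (-0.15). Above 0 were Atf4 at 141 and 148 CPM (0.073, 0.021 to 0.13), Derl2 (0.14), Dnajb9 and Trib3. Dnajb9 had 151 UMIs (3.61 CPM) in WT and 210 (5.15 CPM) in KO, a ratio of 0.51 (0.20 to 0.82). Trib3 had 36 and 56 UMIs, a ratio of 0.67 (0.045 to 1.32), which was 0.11 as a mean over cells. The class pooled 4 clusters, with 568 WT and 723 KO cells in the largest and 243 and 404, 253 and 383, and 161 and 254 cells in the others. The part of this mix of clusters in the result was not tested.

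Macrophage-like cells had the largest share of genes above the fold. Of 27 measured genes 11 were higher in KO past the limit (22.6% of all genes) and 0 lower (10.8%). The median log2 ratio was 0.24, beside 0.067 over all genes, and it was 0.14 as a mean over cells of the CPM per cell. Hspa5 had 345 CPM in WT and 548 CPM in KO, a ratio of 0.67 (0.53 to 0.80). Hsp90b1 had 520.1 and 795 CPM (0.61), Canx 194 and 268 CPM (0.47), Calr 697 and 918 CPM (0.40) and Atf6 15.7 and 28.1 CPM (0.84, 0.22 to 1.49). Dnajc3 (0.38), Pdia4 (0.43) and P4hb (0.33) also passed the limit with intervals above 0. Pdia6 (0.012) and Sec61b (-0.049) did not share the difference. The WT value came from 50 cells with a median of 37030 UMIs and the KO value from 103 cells with a median of 17313 UMIs. The sum of the 9 macrophage markers was 3942 (WT) and 5467 CPM (KO), that of the 12 neutrophil markers 474 and 211 CPM and that of the 10 erythroid markers 1056 and 1176 CPM. The part of these in the result was not tested. With female cells alone the Hspa5 ratio was 0.49, and Calr (0.23), Canx (0.29), P4hb (0.30) and Pdia4 (0.31) were under the limit. P4hb was also under it as a mean over cells (0.31), without haemoglobin, mitochondrial and ribosomal protein genes (0.28) and with median-of-ratios scaling (0.28), and Dnajc3 was under it as a mean over cells (0.14) and just under it with median-of-ratios scaling (0.32). With cells gated one by one the Atf6 ratio was 0.50 (-0.12 to 1.14).

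In endothelial-like cells the summed level was 4943 (WT) and 5387 CPM (KO), a log2 ratio of 0.12 (0.078 to 0.17). By role, the 6 sensors and transcription factors had 163 and 225 CPM (0.47, 0.22 to 0.72). Chaperones and partners had 0.14 (0.081 to 0.21), disulfide enzymes 0.14 (0.034 to 0.24) and translocation genes 0.054 (-0.056 to 0.16). Stress feedback genes had -0.28 (-0.67 to 0.11) and ERAD genes -0.097 (-0.35 to 0.15), below 0 with intervals that held 0. The median log2 ratio of the single genes was smaller than that of the sum, at 0.035. It ranged from -0.055 to 0.11 over 11 alternatives and kept its sign in 8 of them. Endothelial-like cells had 7 of 25 genes higher in KO past the limit (16.7%) and 1 lower (10.5%), with intervals above 0 for Calr at 614 and 803 CPM (0.39), P4hb at 123 and 160.3 CPM (0.38), Atf4 at 73.6 and 99.97 CPM (0.44) and Ero1l at 18.4 and 30.5 CPM (0.73, 0.0090 to 1.48). The Calr ratio there was 0.13 (-0.028 to 0.28) without doublet calls, 0.20 as a mean over cells and 0.29 with cells gated one by one. The P4hb ratio was 0.30 without doublet calls, 0.29 with cells gated one by one and 0.27 with female cells. The 10 endothelial markers summed to 3274 (WT) and 3119 CPM (KO) in this class, the 10 erythroid markers to 1468 and 1202 CPM, the 11 stem cell markers to 509 and 422 CPM, the 10 hepatocyte markers to 529 and 303 CPM and the 9 megakaryocyte markers to 360.2 and 252 CPM. The part of these markers in the result was not tested. Megakaryocyte-like cells had 1 of 26 higher (13%) and 1 lower (14%). Derl1 had 90.1 and 123 CPM (0.45), which was 0.27 with cells gated one by one and 0.28 with female cells, and Pdia3 had 378 and 288 CPM (-0.39, -0.55 to -0.24), which was -0.19 with cells gated one by one. The 10 hepatocyte markers had a sum of 74.7 (WT) and 921 CPM (KO) in megakaryocyte-like cells, and immediate early genes there had a median log2 KO/WT ratio of 0.95. Lymphoid-like cells had 1 of 27 higher (8.51%) and 0 lower (10.3%), with a median of -0.023. Among unnamed clusters, that led by Gm15915 had 1 of 30 genes higher (6.66%) and 1 lower (5.4%), and that led by Hba-x, an embryonic haemoglobin gene, had 0 of 29 higher (7.87%) and 1 lower (7.32%). In the latter Pdia4 had 30.0 and 23.7 CPM (-0.34). A cluster of 1 WT and 100 KO cells, led by Pf4, was left unnamed and was not compared. It had 8 of the 9 megakaryocyte markers at 1.5-fold or more and a median of 6867 UMIs per cell, and is not part of the megakaryocyte-like class.

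**Figure D5:**
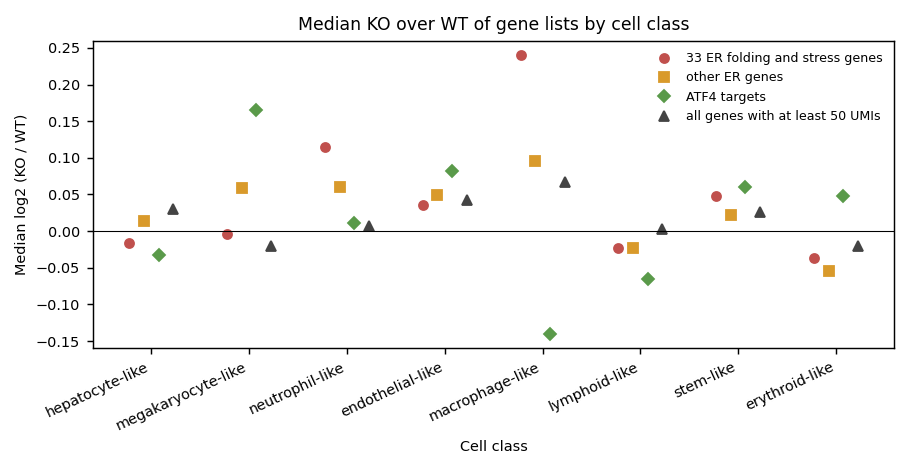
Median log2 KO/WT ratio (y axis) of the 33 ER genes, of other ER genes, of ATF4 targets and of all genes with at least 50 UMIs, by cell class (x axis). The 33 genes stood at 0.24 in macrophage-like and 0.12 in neutrophil-like cells, and between -0.037 and 0.048 in the 6 other classes.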

How the data were processed

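Fetal liver LSK cells of 1 WT and 1 IκBα KO pool were sequenced with 10x Genomics 3′ v3 chemistry. The authors aligned the reads with Cell Ranger (6.0.0) to mm10 (GRCm38) and deposited unnormalized counts of UMIs for each gene in each cell. The annotation release is not given in the sources used here. The cell filter was a minimum of 1000 genes and a maximum of 20% mitochondrial UMIs, with doublet calls kept (Scrublet in scanpy 1.11.5, 3.90% of WT and 5.80% of KO cells). Libraries were merged without integration and clustered in Seurat 5.3.0 (R 4.3.3; 2000 variable genes, 20 principal components, resolution 0.5) with the described gene lists left out. Clusters were named by fixed markers with a scoring rule settled after seeing the clusters, so names can differ from the study's. A cluster took the class with at least 3 markers among its 50 leading genes. Failing that, it took the class with at least 50% of its markers at 1.5-fold or more, if every other class had at most 25%. In both cases no other class could have more markers among the foremost leading genes, and clusters that met neither rule stayed unnamed.

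UMIs were summed per class and scaled to CPM, with exact Poisson intervals. Ratios have exact conditional (Clopper-Pearson) intervals. Their calculation was checked on simulated Poisson counts, the model that the intervals assume, so the check does not cover variation between cells or embryos. Genes with at least 50 UMIs were counted past a log2 ratio of 0.32 (KO/WT) or 2-fold (class over stem-like). A gene at fewer than 50 UMIs was not counted. Named genes were Hspa5, Calr, Xbp1, Atf4 and Ddit3, those past that limit with an interval outside 0, and those with the 5 largest and 3 smallest class ratios. Other genes were named to describe their role. Members and lists were chosen with earlier results of these data known. Of the Ddit3 IDs, the one with 2563 UMIs was used (the other had 0). Protein features were not analysed here.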

Additional observations from a re-analysis of the deposited data

Results flagged for a closer look

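The genes below had KO/WT counting intervals on opposite sides of 0 in a pair of cell classes. How many of all genes meet the same rule was not counted, so the list cannot be read as particular to ER genes. The difference between classes was not tested, since each value compares 1 KO with 1 WT library. Macrophage-like cells stood above 0 against erythroid-like cells below 0 for Hspa5 (log2 KO/WT 0.67 against -0.15), Dnajc3 (0.38 against -0.21) and Manf (0.25 against -0.12). They stood above megakaryocyte-like cells for Hsp90b1 (0.61 against -0.24), Canx (0.47 against -0.23) and Pdia3 (0.22 against -0.39). Neutrophil-like cells stood above erythroid-like cells for Dnajb11 (0.28 against -0.15), Ssr4 (0.17 against -0.059) and Sec61b (0.054 against -0.051), and above lymphoid-like cells for Pdia6 (0.11 against -0.16). Dnajb9 had the reverse pattern, with 0.51 in erythroid-like and -0.72 in hepatocyte-like cells.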

How the results depend on the processing

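No paired analysis was possible because only 1 library represented each genotype, and for the same reason no library could be left out. Alternatives fixed at the outset changed how cells were chosen, scaled or filtered, and using each stem-like cluster alone was chosen after seeing the data. The KO/WT median of the genes stayed above 0 in neutrophil-like (0.090 to 0.15) and macrophage-like cells (0.14 to 0.31) in the 11 alternatives run for each, and Hspa5 in neutrophil-like cells ranged from 0.094 to 0.24. With cells gated one by one, the genes lower past the fold limit in KO stem-like cells were 1 instead of 0, Hspa5 there was -0.033 instead of 0.11, neutrophil-like cells had 3 higher and 0 lower instead of 0 and 1, and the WT neutrophil-like over stem-like median was 1.09 instead of 0.71. With a cell filter at the midpoint of genes, neutrophil-like cells had 1 higher and 0 lower and that median was 1.16. Without doublet calls, neutrophil-like cells had 1 higher and the hepatocyte-like KO/WT median was 0.11 instead of -0.016. At resolution 1.0, stem-like cells had 2 higher and 1 lower, neutrophil-like cells 1 higher, and the WT neutrophil-like median was 0.97. With female cells, stem-like cells had 0 higher instead of 1, neutrophil-like cells 1 higher and 0 lower, erythroid-like cells 1 lower and hepatocyte-like cells 0 higher instead of 2. As means over cells, stem-like cells had 2 higher, neutrophil-like cells 0 lower, erythroid-like cells 1 higher and 1 lower, hepatocyte-like cells 4 higher and 5 lower instead of 2 and 3, and the WT hepatocyte-like over stem-like median was 1.20 instead of 1.06. That median was 0.87 without haemoglobin, mitochondrial and ribosomal protein genes and 1.19 with median-of-ratios scaling, and each left 1 hepatocyte-like gene higher. At a minimum of 20 UMIs stem-like cells had 1 lower. At 200 UMIs stem-like cells had 0 higher, neutrophil-like cells 0 lower, erythroid-like cells 1 higher and hepatocyte-like cells 1 higher and 0 lower, with fewer genes measured. With the genes allowed among the clustering genes, neutrophil-like cells had 2 higher. In the cycling stem-like cluster 0 genes were higher, and in the other stem-like cluster 2 were lower and Atf4 was -0.0088 instead of 0.24. The cause of these changes was not tested. Shares of all genes past the limit under each alternative are not given here. The counts of genes past the limit therefore show how far they move with the processing, and are not results about the listed genes. Depth limited Trib3, Derl3, Ern1 and Eif2ak3 most.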
